A study of Mus musculus with 48 samples.

Results

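Nnt encodes the nicotinamide nucleotide transhydrogenase of the inner mitochondrial membrane, and its RNA is described here across the cerebral cortex of 48 mice. The gene was found by its symbol, which names 1 of the 48795 rows of the deposited count table (ENSMUSG00000025453). It was chosen by its counts in these 48 libraries, which were known to vary between mice and genotypes, so its levels over the genotypes are a description and carry no test. The mice were 12 months old, labelled C57BL/6 with no substrain, and formed 6 genotypes of 8 mice, 4 females and 4 males each. The genotypes were wild type (WT), Msh3+/-, Msh3-/-, Q140, Q140 with Msh3+/- (Q140 Msh3+/-) and Q140 with Msh3-/- (Q140 Msh3-/-), with no treatment. Q140 is a knock-in of an expanded CAG repeat in Htt, carried heterozygously by every Q140 mouse, and models Huntington disease. Msh3 encodes a DNA mismatch repair protein that acts on small insertion and deletion loops. Neither the part of Msh3 that was altered nor the substrain in which either allele was made is given in the labels. The comparisons set each Msh3 genotype against Msh3+/+ with and without Q140, and Q140 against no Q140.

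The transhydrogenase passes a hydride from NADH to NADP and uses the proton gradient of the inner membrane to drive it. The NADPH it makes feeds the glutathione and thioredoxin systems that remove hydrogen peroxide in the mitochondrial matrix. Nnt is a textbook difference between C57BL/6 lines: C57BL/6J mice carry an Nnt allele that lacks several internal exons and makes no working enzyme, whereas C57BL/6N mice carry an intact one. The GRCm38 reference was built from C57BL/6J, so reads from those exons have no place in that build and are not part of the counts.

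On GRCm38, with GENCODE M21 models, Nnt lies on the minus strand of distal chromosome 13, from position 119335448 to 119408997, a span of 73550 bp. M21 gives it 5 transcripts, of which the one with the longest coding part, Nnt-202, has 17 exons and 2505 coding bases. Dividing the counts by the deposited FPKM (fragments per kilobase of gene and per mega of counts) returned a length of 7037 bp, the same as the union of all M21 exons. That length is more than the 3464 bases of Nnt-202, so FPKM values of Nnt are low against a count per transcript. Msh3 lies on the same chromosome, and its end is 27.0 Mb from the start of Nnt.

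Library totals ran from 37.7 M to 68.3 M counts (median 48.6 M), and 19547 genes passed the filter on low counts. The vesicular glutamate transporter Slc17a7, a marker of cortical excitatory neurons, had group means of 1304 to 1387 CPM (counts per mega of counts in the library, scaled by TMM normalization). Msh3 counts separated the 3 labelled Msh3 genotypes without overlap, but upward: 22.4 ± 1.16 CPM in WT, 60.1 ± 3.06 in Msh3+/- and 99.2 ± 8.15 in Msh3-/- (SD, n = 8). A row count of this kind does not show whether the altered part is missing, so genotypes are those of the labels. Most libraries had little RNA of neighbouring tissues, with exceptions (marker sums are scaled to library totals alone). The summed level of 4 choroid plexus markers was 599 CPM in Msh3+/- M2 against a median of 6.51, 3 pituitary hormone genes summed to 44.6 CPM in WT M2 against a median of 0.747, and 4 haemoglobin genes summed to 22.2 CPM in Msh3-/- F4 against a median of 0.689. These are the highest sums and not the only high ones. Among the 16 Msh3+/- libraries, with and without Q140, the haemoglobin sum reached 20.5 CPM and the pituitary sum 14.1 CPM. Libraries are named by genotype, sex (F or M) and the replicate number of the label. Being bulk cortex, the libraries cannot tell fewer cells of a type from less RNA per cell.

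Nnt varied 2.51-fold between libraries, from 18.0 to 45.2 CPM (median 30.9), and the values fell into 3 ranges with empty stretches between them. The deposited counts behind them were 821 to 2543 reads. These gave an exact binomial 95% interval of 3.91 to 6.90% on either side of a value, for counting error only. The lower range held 9 libraries at 18.0 to 21.4 CPM, the middle range 30 libraries at 27.3 to 33.6 CPM, and the upper range 9 libraries at 38.3 to 45.2 CPM. The ranges were drawn after the values were seen. Between the lower and the middle range lay a gap of 0.36 on the log2 scale, between WT M4 (21.4 CPM) and WT M3 (27.3 CPM). The second gap, of 0.19, lay between Q140 Msh3+/- F1 (33.6 CPM) and Msh3-/- M1 (38.3 CPM), and no other pair of neighbours was more than 0.088 apart.

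**Figure D1:**
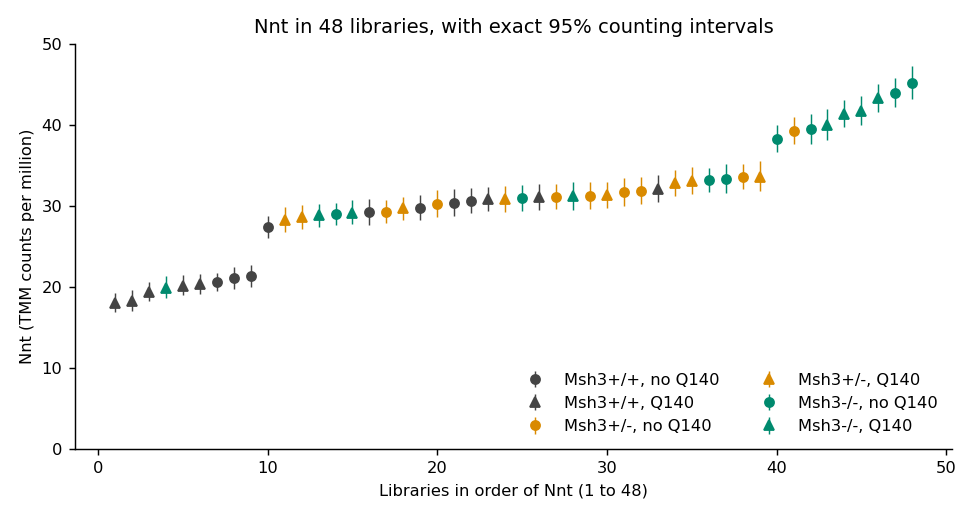
Nnt in the 48 libraries in ascending order, in TMM-scaled CPM, with exact 95% binomial intervals as bars. Colour gives the Msh3 genotype and shape the presence of Q140. The first 9 libraries lie at 18.0 to 21.4 CPM, the next 30 at 27.3 to 33.6 CPM and the last 9 at 38.3 to 45.2 CPM.

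Under a rule that asks for a gap over 0.3 on the log2 scale with at least 3 libraries on each side, Nnt had 2 levels, since the upper gap fell short of it. Normal mixtures of equal variance, compared by their Bayesian information criterion (BIC, higher is better), gave -39.4 for 1 component, -33.1 for 2, -3.22 for 3 and -11.0 for 4. The 3 components on the log2 scale had means of 19.9, 30.8 and 41.3 CPM and held 9, 30 and 9 libraries. On the linear scale the BIC was also highest at 3 components, at -299 against -336 for 2 and -306 for 4. The steps between the component means were 10.9 and 10.6 CPM. Both the gap rule and the mixtures were applied to the values by which the gene was chosen, so they describe those values. With library totals in place of TMM the 2 gaps were 0.37 and 0.19, and with DESeq2 size factors 0.36 and 0.19.

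Few genes were spread like this. Of 7727 genes with a mean of at least 20 CPM, 24 (0.311%) passed the same gap rule. Besides Nnt they included Msh3, the X-inactivation transcript Xist and the Y-linked Ddx3y and Eif2s3y, which differ by genotype or sex, and the activity-induced genes Fos, Arc and Dusp1. The SD of Nnt over libraries was 0.34 on the log2 scale against a median of 0.085 for those genes, with 44 genes above it. After group and sex were taken out, the residual SD of Nnt was still 0.25 against a median of 0.077. Nnt was chosen with its variation known, so its place among these genes is a description.

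The 3 ranges were shared unequally among the Msh3 genotypes. Of the 16 Msh3+/+ libraries, 8 were in the lower range, 8 in the middle and 0 in the upper. Of the 16 Msh3+/- libraries, 15 were in the middle range, 1 in the upper and 0 in the lower. Of the 16 Msh3-/- libraries, 8 were in the upper range, 7 in the middle and 1 in the lower. The lone lower-range library of Msh3-/- was Q140 Msh3-/- M2, at 19.9 CPM, whose Msh3 level of 96.4 CPM lay within the range of its group. The lone upper-range library of Msh3+/- was Msh3+/- M2, at 39.3 CPM, the library with the high choroid plexus sum. The part of that tissue in its Nnt level was not tested.

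By group, the lowest mean was that of Q140, 23.8 ± 6.32 CPM (SD, n = 8 in each group), with a lowest library of 18.0, a median of 20.3 and a highest of 32.1. Of its 8 libraries, 5 were in the lower range: M3, F2, M2, M1 and F4, at 18.0, 18.3, 19.4, 20.2 and 20.4 CPM. WT followed at 26.3 ± 4.504 CPM, from 20.6 to 30.7 with a median of 28.3. Its lower-range libraries were F4, F1 and M4, at 20.6, 21.1 and 21.4 CPM. Both Msh3+/+ groups thus held a lower cluster and a middle cluster, and neither had a library above 32.1 CPM.

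The Msh3+/- groups were the tightest. Q140 Msh3+/- averaged 31.0 ± 2.06 CPM, from 28.3 to 33.6 with a median of 31.1. Msh3+/- averaged 32.3 ± 3.09 CPM, from 29.3 to 39.3 with a median of 31.5.

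The Msh3-/- groups were the highest and again wide. Q140 Msh3-/- averaged 34.4 ± 8.38 CPM, from 19.9 to 43.3 with a median of 35.6, and its 4 upper-range libraries were F2, M1, F1 and F3. Msh3-/- averaged 36.7 ± 6.00 CPM, from 29.0 to 45.2 with a median of 35.8, and its 4 upper-range libraries were M1, M3, F3 and F4. The highest of all, Msh3-/- F4 at 45.2 CPM, was also the library with the highest haemoglobin sum; the part of blood in it was not tested. In the order Q140, WT, Q140 Msh3+/-, Msh3+/-, Q140 Msh3-/-, Msh3-/-, the steps between neighbouring means were 2.52, 4.73, 1.27, 2.14 and 2.24 CPM. Each pair of neighbours overlapped in range, and each step but that from WT to Q140 Msh3+/- was smaller than the larger of the pair's SDs.

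**Figure D2:**
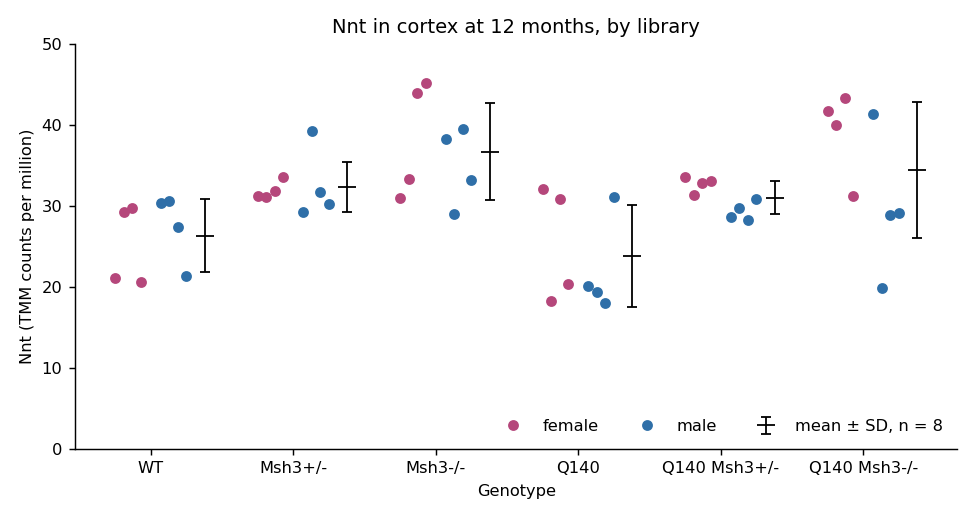
Nnt in TMM-scaled CPM (vertical axis) for each library by genotype, females and males in different colours, with the group mean and SD (n = 8) beside the points. WT and Q140 reach down to 20.6 and 18.0 CPM, 7 of 8 Msh3+/- and 8 of 8 Q140 Msh3+/- libraries lie between 28.3 and 33.6 CPM, and the Msh3-/- groups reach 45.2 and 43.3 CPM.

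The fitted differences followed those means. Averaged over Q140, Nnt was higher by 0.51 (log2, SE 0.091) in Msh3-/- than in Msh3+/+, a 1.42-fold difference, and higher by 0.34 (SE 0.092) in Msh3+/- than in Msh3+/+. Without Q140 the differences from WT were 0.48 (SE 0.13) for Msh3-/- and 0.30 (SE 0.13) for Msh3+/-. Within Q140 mice they were 0.54 (SE 0.13) for Q140 Msh3-/- and 0.39 (SE 0.13) for Q140 Msh3+/-, each against Q140. These pairs share their WT or Q140 controls. The difference of Q140 from WT was -0.15 (SE 0.13), that of Q140 Msh3+/- from Msh3+/- was -0.063 (SE 0.13), and that of Q140 Msh3-/- from Msh3-/- was -0.085 (SE 0.13). No p is given for these values, since the gene was chosen with them known. Summed cell type markers overlapped between the Msh3 genotypes. Those of striatal neurons (4 genes) ran from 92.8 to 116 CPM in Msh3+/+ (median 102), 89.9 to 126 in Msh3+/- (105) and 95.2 to 130 in Msh3-/- (109). In the same order, those of oligodendrocytes (3 genes) had medians of 1359, 1304 and 1403 CPM. Medians of blood (4 genes) rose in that order, at 0.58, 0.74 and 1.3 CPM, and those of choroid plexus (4 genes) fell, at 8.6, 6.2 and 5.7 CPM. Over the 48 libraries, Spearman rho of the marker sum with Nnt was 0.36 for striatal neurons, 0.33 for blood, 0.30 for oligodendrocytes and -0.24 for choroid plexus, and between -0.12 and 0.15 for the other lists. Their part in the Nnt differences was not tested.

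Sex was not used to choose the gene and was tested. Nnt averaged 29.4 ± 6.35 CPM in males and 32.1 ± 7.24 CPM in females (SD, n = 24 each). The difference, male minus female, was -0.12 (log2, SE 0.074; 95% interval -0.27 to 0.025) and did not pass the threshold (edgeR quasi-likelihood test, Benjamini-Hochberg adjusted p = 0.424). Each range held both sexes: 4 females and 5 males in the lower, 15 and 15 in the middle, and 5 and 4 in the upper.

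The sample descriptions start with a name prefix that several libraries share, whose meaning is not given in the labels. Of 12 prefixes with more than 1 library (33 libraries in all), 7 spanned more than 1 range of Nnt and 1 spanned all 3. That one held Q140 F2 in the lower range (18.3 CPM), Msh3+/- F3 in the middle (31.9 CPM), and Msh3-/- F3 and Q140 Msh3-/- F1 in the upper (44.0 and 41.7 CPM). Another prefix held 4 libraries of 3 genotypes, all in the middle range at 27.3 to 30.7 CPM, and a further one held Q140 M2 and WT M4, both in the lower. Lower-range libraries also came from each of the 6 columns of the plate given by the well addresses, with 4 in column 5 and 1 in each of the others.

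Other genes known to differ between C57BL/6 lines were then read in the same libraries, to see whether levels like those of Nnt also appeared elsewhere in the genome. Of 7 such genes on the list, 5 were testable here, and 3 passed the gap rule. Wdfy1, an endosomal protein gene on chromosome 1, had 10 libraries at 14.8 to 18.2 CPM, 26 at 26.1 to 31.7 CPM and 12 at 40.8 to 44.9 CPM, with gaps of 0.52 and 0.36 (log2). Ide, the insulin-degrading enzyme gene on chromosome 19, had 21 libraries at 49.8 to 58.3 CPM, 24 at 78.6 to 91.1 CPM and 3 at 115 to 117 CPM, with gaps of 0.43 and 0.34. Gabra2, a GABA-A receptor subunit gene on chromosome 5, had 4 libraries at 43.4 to 49.4 CPM and the other 44 at 70.1 to 118 CPM, with a gap of 0.50. A second Gabra2 gap, of 0.13, fell short of the rule, as did the upper gap of Nnt. It lay between 18 libraries at 70.1 to 81.1 CPM and 26 at 89.0 to 118 CPM. Cyfip2, whose protein sits in the complex that drives actin branching, ran from 1448 to 1767 CPM with no gap over 0.022. A lack of separate RNA levels does not show that the libraries share an allele there.

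**Figure D3:**
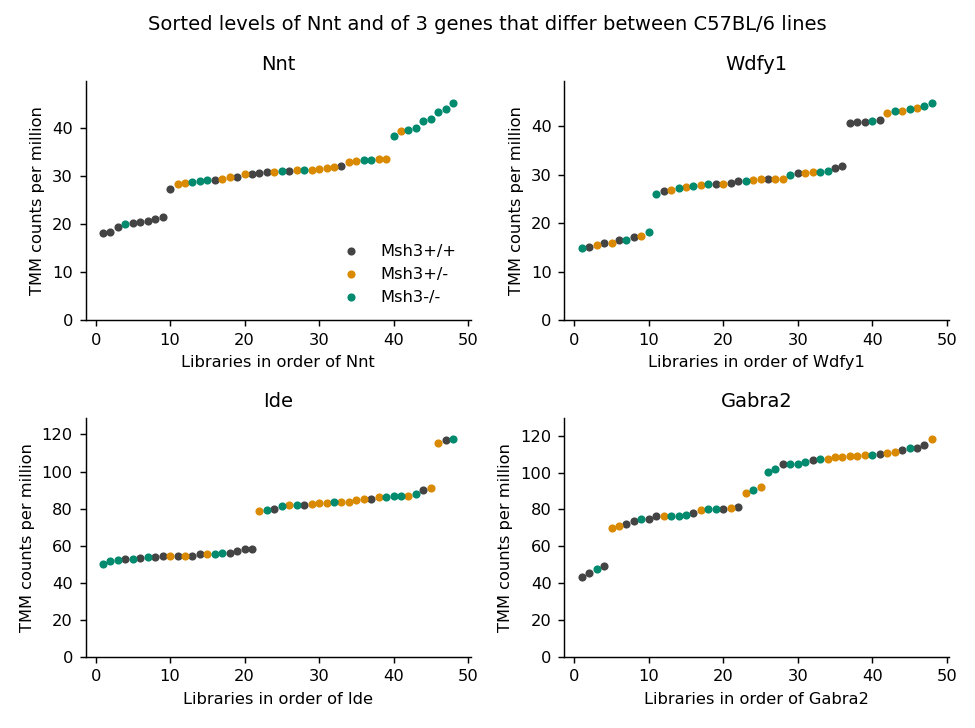
Nnt, Wdfy1, Ide and Gabra2 in TMM-scaled CPM (vertical axes, from 0), each with the 48 libraries in ascending order of that gene, coloured by Msh3 genotype. Wdfy1 steps up after 10 and after 36 libraries, Ide after 21 and after 45, and Gabra2 after 4. Gabra2 has a narrower gap between 81.1 and 89.0 CPM.

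The libraries in the lower range of one gene were only in part those in the lower range of another. Of the 9 libraries in the lower range of Nnt, 3 were in the lowest range of Wdfy1, 4 in its middle and 2 in its highest. Those 9 held 2 of the 4 lowest Gabra2 libraries, WT F4 at 43.4 CPM and Q140 M1 at 45.4 CPM. For Ide, 7 of the 9 were in the lowest range and 2 in the middle. The lowest range of Wdfy1 held 4 Msh3+/+, 3 Msh3+/- and 3 Msh3-/- libraries, and its highest 4, 3 and 5. In the lowest range of Ide were 11 Msh3+/+, 3 Msh3+/- and 7 Msh3-/- libraries. The tables hold no genotype at any of these genes, so which allele a library carries was not tested.

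The genes beside Nnt on chromosome 13 were tested in every comparison. Of 47 tested genes whose start lies within 10 Mb, 0 were called at an adjusted p under 0.05 (edgeR) in any of the 10 genotype comparisons. The percentages of all genes called, as background, were 0.102% for Q140 against WT, 0.0307% for Msh3+/- against WT, 0.113% for Msh3-/- against WT, 0.0307% for Q140 Msh3+/- against Q140 and 0.102% for Q140 Msh3-/- against Q140. For Q140 Msh3+/- against Msh3+/- it was 0.0512%, for Q140 Msh3-/- against Msh3-/- 0.0205%, and for the averaged comparisons 0.215% (Msh3-/-), 0.0512% (Msh3+/-) and 1.47% (Q140). DESeq2 called 1 neighbour in averaged Msh3-/- against Msh3+/+, Rab3c, a synaptic vesicle GTPase gene, lower by 0.16 (adjusted p = 0.0358). Between the sexes, where 4.28% of genes were called, 1 neighbour was called: Il6st, the shared signalling receptor of the interleukin-6 family, lower in males by 0.080 (log2, adjusted p = 0.0368).

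Likeness to Nnt over the 48 libraries was low for its neighbours, as it was for most genes elsewhere. Spearman rho of log2 CPM ran from -0.37 to 0.47 over the 37 neighbours with a mean of at least 1 CPM, with a median of -0.0084. The highest was Plpp1, a lipid phosphate phosphatase gene (0.47). On the rest of the chromosome rho ran from -0.61 to 0.54 over 501 genes, with a median of -0.021. For 14568 genes of other chromosomes the median was -0.0017. The median absolute rho was 0.092 for the neighbours, 0.14 on the rest of the chromosome and 0.13 on other chromosomes. A range widens with the number of genes, so the narrower one of the neighbours sets them apart no further. Msh3 itself had a rho of 0.54 with Nnt, and of 0.067 once group and sex were taken out of both.

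**Figure D4:**
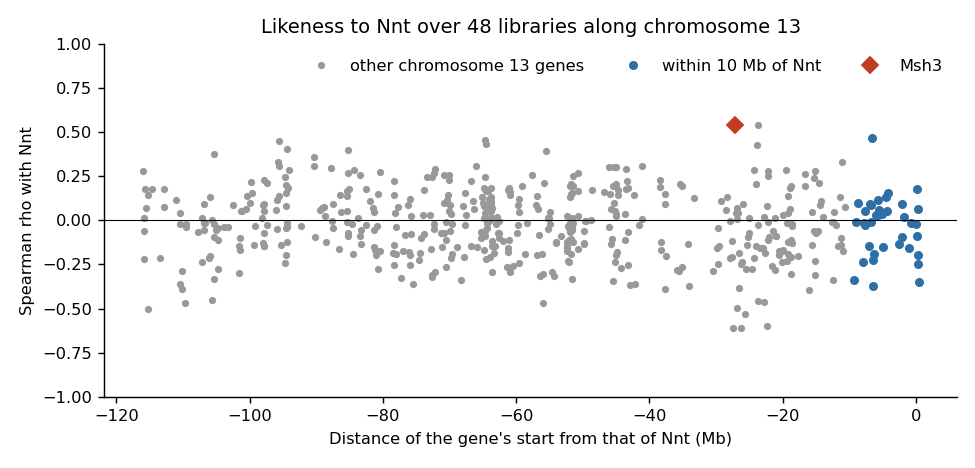
Spearman rho with Nnt over 48 libraries (vertical axis) for chromosome 13 genes with a mean of at least 1 CPM, against the distance of their start from that of Nnt in Mb. Genes within 10 Mb lie between -0.37 and 0.47, and Msh3, shown as a diamond, lies at 0.54.

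Across all chromosomes, the genes most like Nnt by rho were Tmem143 (0.60; a mitochondrial membrane protein gene), BC026585 (0.60), Kcnip2 (0.60; a regulator of A-type potassium channels), Mxra7 (0.58) and Stard3 (0.56; a cholesterol-binding protein of late endosomes). With group and sex taken out, rho stayed at 0.56 for Tmem143 and 0.59 for BC026585, and was 0.13 for Kcnip2, 0.29 for Mxra7 and 0.41 for Stard3. The least alike were Rasgrf2 (-0.61), Cmya5 (-0.61), Fam169a (-0.60), Tcf20 (-0.59) and Shprh (-0.55). Rasgrf2, Cmya5 and Fam169a lie on chromosome 13 on the side of Msh3, at -27.5, -26.3 and -22.3 Mb from Nnt, and with group and sex taken out their rho was -0.29, -0.24 and 0.10. The libraries share their genotype groups and fall into ranges, so these coefficients describe this set of mice. Of the 10 genes highest by rho, 2 were also among the 10 highest after group and sex were taken out.

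On the FPKM scale, which divides by gene length, 5 of the 10 genes of mitochondrial NADPH supply had a higher mean than Nnt. Its own FPKM was 4.37 ± 0.98 (SD, n = 48). Glud1, glutamate dehydrogenase, stood highest of the mitochondrial NADPH-supply genes at 46.3 ± 1.98 FPKM, and Idh2, the matrix NADP-dependent isocitrate dehydrogenase, was at 10.8 ± 1.05 FPKM. The NAD kinase Nadk2 (8.06 ± 0.420 FPKM), the serine hydroxymethyltransferase Shmt2 (7.83 ± 0.679 FPKM) and the malic enzyme Me2 (6.56 ± 0.330 FPKM) also had higher means than Nnt. Mthfd1l, of folate metabolism, was at 4.34 ± 0.528 FPKM and the malic enzyme Me3 at 3.39 ± 0.247 FPKM. In FPKM, Nnt ran from 2.56 to 6.40, a range that spans all libraries of Me3 (2.96 to 4.01 FPKM) and of Mthfd1l (3.26 to 5.70 FPKM). Idh2 ran from 8.78 to 13.7 FPKM, above every library of Nnt on this scale. The FPKM of Nnt divides by the 7037 bp of all its exons, against 3464 bases for Nnt-202, so it is low against a count per transcript. The lengths used for the other genes were not compared, so this order by FPKM need not be the order per transcript.

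Nnt varied more than most genes of its pathway. Its FPKM had a coefficient of variation of 22.4%, against a median of 6.49% over the 71 genes of 7 NADPH, NAD and redox lists with a mean of at least 1 FPKM. Of those 71, only Mthfd2, a folate-cycle dehydrogenase at 1.43 FPKM, had a larger one (31.6%). Idh2 stood at 9.79% and Glud1 at 4.27%. Because Nnt was chosen with its variation known, this contrast with its pathway follows in part from that choice.

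**Figure D5:**
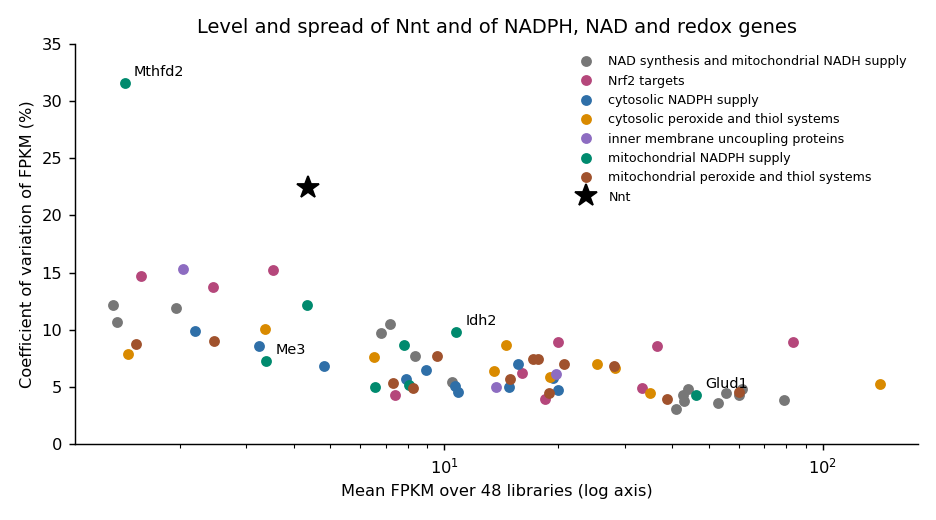
Mean FPKM over 48 libraries (horizontal, log axis) against the coefficient of variation in percent (vertical) for Nnt, as a star, and for genes of the NADPH, NAD and redox lists with a mean of at least 1 FPKM. Nnt lies at 4.37 FPKM and 22.4%, below Mthfd2 at 31.6% and above the other genes.

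The other genes of NADPH, NAD and peroxide metabolism were read from 7 lists of 75 genes, all of them tested. In the 9 genotype comparisons other than averaged Q140, 0 of 75 were called by edgeR, where at most 0.215% of all genes were, so that count says nothing particular about the lists. For averaged Msh3-/- against Msh3+/+, 11 of the 75 (14.7%) reached an unadjusted p under 0.05, against 14.9% of all genes, and the median difference of the 75 genes was -0.0046 (log2) against 0.0048 over all genes. Smallest in p there were Dld, a shared subunit of the mitochondrial dehydrogenase complexes (-0.079, SE 0.023, adjusted p = 0.111), the mitochondrial deacetylase Sirt3 (0.098, SE 0.033, adjusted p = 0.158) and the matrix superoxide dismutase Sod2 (-0.067, SE 0.023, adjusted p = 0.159), all by edgeR. Of the 10 mitochondrial NADPH-supply genes, 3 lay above 0 in that comparison, with a median of -0.034. In averaged Msh3+/- against Msh3+/+ the 75 genes had a median of -0.0065 against 0.0026 over all genes, with 5.33% of them and 8.14% of all genes at an unadjusted p under 0.05. The test of whether the Q140 difference depends on Msh3 genotype called 0 genes of 19547 for either Msh3 genotype.

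Averaged over Msh3 genotypes, Q140 mice had 2 of the 75 genes called, both lower (2.67%, against 1.47% of all genes). Cat, the catalase that breaks down hydrogen peroxide, averaged 34.1 ± 1.68 CPM with Q140 and 36.4 ± 2.43 CPM without (SD, n = 24 each), a difference of -0.095 (SE 0.025, edgeR adjusted p = 0.0332). Slc7a11, the cystine importer that feeds glutathione synthesis, averaged 45.6 ± 6.47 CPM with Q140 and 52.4 ± 7.04 CPM without, a difference of -0.20 (SE 0.054, adjusted p = 0.0415). The groups overlapped for both genes: Cat ran from 31.5 to 36.9 CPM with Q140 and from 31.8 to 40.0 CPM without, and Slc7a11 from 30.2 to 57.4 CPM and from 37.4 to 65.6 CPM. With a term for the plate column the differences were of like size, -0.087 for Cat and -0.22 for Slc7a11, but neither passed the threshold (adjusted p = 0.173 and 0.0863), and 0 of the 75 were called without WT M2 and Msh3+/- M2.

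Males and females differed in 4 of the 75 genes (5.33%, against 4.28% of all genes). Higher in males were Msra, a methionine sulfoxide reductase (0.11, SE 0.027, edgeR adjusted p = 0.0088), and Nadk2, which makes the NADP that matrix NADPH production needs (0.071, SE 0.020, adjusted p = 0.0303). Lower in males were the glutathione transferase Gstm1 (-0.11, SE 0.032, adjusted p = 0.0314) and Ogdh, a subunit of the 2-oxoglutarate dehydrogenase complex (-0.061, SE 0.018, adjusted p = 0.0348). With the plate column as a term, and likewise with no filter on low counts, Msra alone of the 4 stayed called. The differences of the other three with the plate column were 0.066 for Nadk2, -0.11 for Gstm1 and -0.052 for Ogdh.

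Whether any gene rises or falls with Nnt was asked within the 39 libraries above the wider gap, with group and sex in the model. These hold the middle and the upper range together. Both the cut and the slope use the Nnt values by which the gene was chosen. Of 20436 genes, 11 (0.0538%) had a slope on Nnt at an adjusted p under 0.05, all of them positive. They were Tmem72, Mfrp, Folr1, Slc4a5, Sostdc1, Aqp1, Cldn2, Kcne2, Clic6, Otx2 and F5; Folr1 and Clic6 are among the choroid plexus markers, and Aqp1, Cldn2, Kcne2 and Otx2 are also known from that tissue. Without Msh3+/- M2, the library with the choroid plexus sum of 599 CPM, 0 genes were called by edgeR, the smallest adjusted p was 0.406, with 1279 genes at an unadjusted p under 0.05. Of the 75 NADPH, NAD and redox genes, 0 were called with all 39 libraries (edgeR), with 5 (6.67%) at an unadjusted p under 0.05, against 5.6% of all genes. Those 5 were Ogdh, Aldh1l1, Gclc, Prdx5 and Slc25a39, each at an adjusted p of 0.873.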

How the data were processed

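The authors deposited whole-number counts per Ensembl gene, with no normalization, and FPKM values that divide those counts by a gene length and the library total. Per the submitters' processing notes, STAR 2.7.5c, SAMtools 1.10, HTSeq 0.12.3, GRCm38 and mm10 were used; roles, annotation release and strand setting are not given in the sources used here. Per the labels' protocols, libraries came from an Illumina TruSeq stranded kit. The extraction protocol speaks of striatum at 6 months, all other labels of cortex at 12 months, which was used. One M21 model of the same symbol overlaps Nnt and has no row in the counts.

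Genes were kept by filterByExpr at its count minimum of 10 and total of 15; counts were scaled by TMM and fitted by edgeR 4.0.16 (quasi-likelihood, R 4.3.3) with 6 groups and sex over 48 libraries. Tests were two-sided, called at a Benjamini-Hochberg adjusted p under 0.05 over all genes. Mixtures used mclust 6.1.1. Alternatives were DESeq2 1.42.0, other scalings and filters, replicate, plate and name-prefix terms (the last with limma 3.58.1), and each library left out. The procedure was tested on simulated data. Nnt, the gene lists and the tests were chosen with earlier results of these data known. Genes named are list members called in a comparison, or otherwise those of smallest p, the NADPH-supply and substrain genes, called neighbours, and the 5 genes most and least like Nnt; genes from the gap rule and the slope on Nnt were named after their values were seen. No 2 libraries of a group agreed within sampling noise; pairs across groups were not compared. The labels name mice but not cages or litters, so p-values measure the spread between these mice.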

Additional observations from a re-analysis of the deposited data

Results flagged for a closer look

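Within the Msh3+/- group, Nnt in library M2 was 39.3 CPM, apart from the 7 others of its group at 29.3 to 33.6 CPM. Its gap to the next library, divided by the range of the group, was 0.570, above Dixon's 95% critical value for 8 samples. In values of 1 normal spread, chance alone marks about 1 in 20 groups by this measure. Nnt, Wdfy1, Ide and Gabra2 fell into separate ranges, so that rate need not hold for the sets looked at. Of 30 such sets (5 genes in 6 groups), 1 was above the critical value. The Nnt values are also those by which the gene was chosen, so the value is a description. The same library had the highest sum of choroid plexus markers, 599 CPM against a median of 6.51, and the part of that tissue in its Nnt level was not tested.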

How the results depend on the processing

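No difference of Nnt between genotypes changed sign under other scalings, no filter on low counts, DESeq2, the plate column, the name prefix as a random block, or leaving out WT M2 and Msh3+/- M2 (chosen after seeing the data). The replicate block gave 0.51 for averaged Msh3-/- and 0.35 for averaged Msh3+/- against Msh3+/+, and 0.48 and 0.30 against WT. Same-numbered libraries did not deviate together (6 of 120 pairs had a correlation over 0.1), so the counts showed no pairing by number. Leaving out each library in turn gave these ranges (log2): 0.48 to 0.55 for averaged Msh3-/- against Msh3+/+, 0.31 to 0.38 for averaged Msh3+/-, -0.13 to -0.074 for averaged Q140, 0.42 to 0.52 for Msh3-/- and 0.24 to 0.35 for Msh3+/- against WT, 0.48 to 0.62 for Q140 Msh3-/- and 0.33 to 0.46 for Q140 Msh3+/- against Q140, -0.23 to -0.096 for Q140 against WT, -0.081 to -0.0038 and -0.14 to -0.0092 for Q140 within Msh3+/- and Msh3-/-, and -0.14 to -0.091 for sex.

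With a gap of 0.4 asked for, Nnt had 1 level, and with 0.18 (chosen after seeing the data) 3. Of the 75 list genes, the averaged Q140 comparison called 1 with no filter, 1 with the replicate block, 0 with the plate column and 0 without WT M2 and Msh3+/- M2. Leaving out each library gave 0 to 4: 0 without Msh3+/- M2, Msh3-/- F2, Msh3-/- M2, Q140 Msh3+/- M2 or Q140 Msh3-/- F2, 1 in 20 fits, 3 without Msh3+/- M1 or Q140 Msh3-/- M3, and 4 without Msh3-/- F3 or Q140 Msh3+/- F1. Cat was called in 42 of those 48 fits and Slc7a11 in 23. Male against female called 1 with no filter, 1 with the plate column, and 2 (without Msh3-/- M1) to 6 (without Q140 M1) on leaving out a library. Within 10 Mb, DESeq2 and the replicate block called 1 gene (Rab3c) for averaged Msh3-/-; of the 103 genes within 20 Mb, 1 was called for Q140 against WT, 1 for Q140 Msh3-/- against Q140 (Cartpt in both), 2 for averaged Q140 (Cartpt and Erbin; 1.47% of all genes) and 2 for sex (Il6st and Sgtb; 4.28% of all genes). Slopes on Nnt were called for 1 gene with the replicate block, 5 with the plate column and 0 without Msh3+/- M2. The cause of these changes was not tested. At 821 reads or more per library, the counting intervals of Nnt did not bridge either gap between its ranges.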
